A study of Mus musculus with 3 samples.

Results

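The 38 genes described here belong to the heat shock response and the unfolded protein response. They were taken by gene symbol from a fixed list, and each was found among the 55536 annotated gene entries of the deposited tables. By role they comprise 15 cytosolic chaperones and co-chaperones, 3 mitochondrial chaperones, 2 heat shock factors, 10 chaperones and quality control genes of the endoplasmic reticulum (ER), 3 regulators of the IRE1 and ATF6 branches, and 5 genes of the PERK and ATF4 branch. The RNA came from the chromatin fraction of C57BL/6J mouse macrophages differentiated from bone marrow and exposed to 100 ng/ml lipid A for 90 minutes. Lipid A is that part of bacterial lipopolysaccharide that Toll-like receptor 4 detects, and chromatin RNA is rich in transcripts that are still being made or have not left the nucleus. The 3 replicates form 1 group and were prepared from 1 µg, 250 ng and 500 ng of RNA in replicates 1, 2 and 3, so replicate and amount cannot be told apart. All carry 1 donor label, so the spread between them may be partly technical. Unstimulated cells were not analysed here, and every value below is a level in stimulated cells, not a change.

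Cells answer misfolded protein with separate programmes. In the cytosol, heat shock factor 1 is released from chaperones and binds heat shock elements upstream of chaperone genes. In the ER, 3 membrane sensors act. IRE1 (gene Ern1) removes an intron from Xbp1 mRNA, ATF6 is cut to release a transcription factor, and PERK (gene Eif2ak3) phosphorylates the translation factor eIF2 alpha, which favours translation of Atf4. ATF4 then drives stress genes such as Ddit3, which encodes CHOP, while the phosphatase subunits encoded by Ppp1r15a and Ppp1r15b undo the phosphorylation. In macrophages, Toll-like receptor signalling is known to engage IRE1 and XBP1 in support of cytokine production.

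The libraries held 11277198, 24965749 and 19794886 expected counts in replicates 1, 2 and 3, of which 69.4%, 40.2% and 50.4% of those in annotated genes lay in protein-coding genes. All 12 macrophage markers were measured, 10 of them above the reference defined below, with a summed TPM of 1262, 698 and 912. The other marker lists summed to 0.4 to 3.89 TPM in every library, apart from neutrophil markers, which ranged from 0 to 1.59 TPM, and 4 of 9 neutrophil markers, including Ly6g, Elane and Mpo, were listed at 0 throughout. Among T and NK cell markers, 4 of 8 were at 0 in every library, Cd3e among them, while Lck stood at 1.98, 0.1 and 1.33 TPM and Cd4 at 0.25, 0.88 and 1.82 TPM. The part of such cells in the results was not tested.

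Upstream sequence was available from RefSeq (GRCm38.p6) for 31 of the 38 genes and is shown for a few genes whose window holds a motif of a stress programme. No window was available for Hspa8, Hsp90aa1, Hsp90ab1, Hspa9, Hsf1, Atf6 and Ppp1r15b, so these genes were not searched for any motif. The 250 bases before the transcription start were searched on both strands for 4 motifs, and no gene held more than 1 kind of motif. The 31 genes have 38 windows, so counts of genes below are not directly comparable with shares of windows. A heat shock element was written as GAANNTTC or TTCNNGAA and was present in 12.8% of all 32851 windows of this length and in 10 of the 31 genes. These were Hspa1a, Hspa1b, Hspb1, Hsph1, Dnaja1, Dnajb4, Dnajb6, Hspd1, Hspe1 and Eif2ak3, so all but Eif2ak3, the PERK gene, encode cytosolic or mitochondrial chaperones. In Hspd1, Hspe1 and Dnajb6 some of the matches overlapped each other. The inducible HSP70 genes Hspa1a and Hspa1b lie on chromosome 17, minus strand, at chr17:34969190-34972156 and chr17:34956436-34959238. Their upstream windows, chr17:34972157-34972406 and chr17:34959239-34959488, differ at 3 of 250 bases. They are printed 5′ to 3′ in the direction of transcription, with the heat shock element, 104 to 97 bases before the start, in capitals.
Hspa1a: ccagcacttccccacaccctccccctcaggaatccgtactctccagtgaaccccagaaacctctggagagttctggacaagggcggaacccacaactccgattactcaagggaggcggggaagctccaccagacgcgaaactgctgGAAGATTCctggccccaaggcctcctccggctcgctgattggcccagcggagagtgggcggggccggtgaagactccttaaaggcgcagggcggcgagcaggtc
Hspa1b: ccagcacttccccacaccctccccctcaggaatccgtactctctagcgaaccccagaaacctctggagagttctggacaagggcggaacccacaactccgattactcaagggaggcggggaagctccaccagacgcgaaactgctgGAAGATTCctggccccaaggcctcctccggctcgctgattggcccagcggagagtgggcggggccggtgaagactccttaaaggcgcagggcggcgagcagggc

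The ER stress response element (ERSE), in which CCAAT and CCACG are separated by any 9 bases, is bound by ATF6 and XBP1 together with NF-Y. It was far rarer and occurred in 37 of the 32851 windows, or 0.113%, and in 5 of the 31 genes. All 5 are ER chaperone genes, namely Hspa5, Hsp90b1, Calr, Canx and Dnajc3, and Hsp90b1 has a pair of them. The sites are printed in 30 bases each, 5′ to 3′ on the strand that carries the CCAAT, with the element in capitals. They lie at chr2:34772020-34772049 (plus strand), chr8:84847070-84847099 (plus), chr10:86705632-86705661 (minus), chr10:86705528-86705557 (plus), chr11:50325794-50325823 (minus) and chr14:118937822-118937851 (plus), in the order shown.
Hspa5: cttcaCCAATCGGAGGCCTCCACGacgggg
Calr: atgggCCAATGAGGGTCGACCACGcgttgt
Hsp90b1, distal: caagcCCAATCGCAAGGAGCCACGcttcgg
Hsp90b1, proximal: actcaCCAATCGTGCCTCACCACGcactct
Canx: attgaCCAATCACCACGCTCCACGaagaat
Dnajc3: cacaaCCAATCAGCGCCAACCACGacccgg

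The distance from the start ranged from 65 to 47 bases in Hspa5 to 212 to 194 bases for the distal Hsp90b1 element. A C/EBP-ATF response element, TGATGNAA, the composite site through which ATF4 acts, was found in 3.45% of all windows and in 2 genes, Herpud1 and Hspa14. Its letters were not found in these windows of Atf4, Ddit3 or Ppp1r15a. The cyclic AMP response element TGACGTCA was found in 1.55% of all windows and in 1 gene, Ppp1r15a, 12 to 5 bases before the start (chr7:45526269-45526298, minus strand).
Ppp1r15a: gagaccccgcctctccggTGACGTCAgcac

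Levels were set on a scale on which genes can be compared per length. The level is log2(TPM + 1) minus the median, in the same library, of 10520 nuclear protein-coding genes whose expected counts averaged 10 or more. This median was 5.5, 3.7 and 4.92 TPM in replicates 1, 2 and 3. A gene was called above or below this reference when it lay beyond 1 log2 unit from it at an adjusted p of 0.05, by limma's treat over 13434 genes. Of all the genes tested, 21.3% were called above and 21.3% below. A total of 35 of the 38 genes passed the count minimum, and 18 of them were above, 5 below and 12 neither. A gene at 0 TPM would lie only 2.23 to 2.7 log2 units under the reference, so calls below had little room. The median level was 1.47 over the 35 genes and 0.77 over all 38, against -0.21 over all genes tested. Over the tested members it was 1.08 in the cytosolic group and 0.75 in the ER group, and over all members of these groups 0.69 and -0.49. All members were tested in the mitochondrial group (-0.08), among the IRE1 and ATF6 regulators (1.95) and in the PERK and ATF4 branch (1.60). The reference bears on the calls. With a minimum of 100 counts it rises, and 5 of 26 tested genes were then above, namely Hspa8, Hsp90ab1, Dnajb6, Hspa5 and Ern1, against 17.8% of all genes, so the members' share was then near that of all genes; with no minimum it falls, and of the 5 genes below 0 kept that call.

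**Figure D1:**
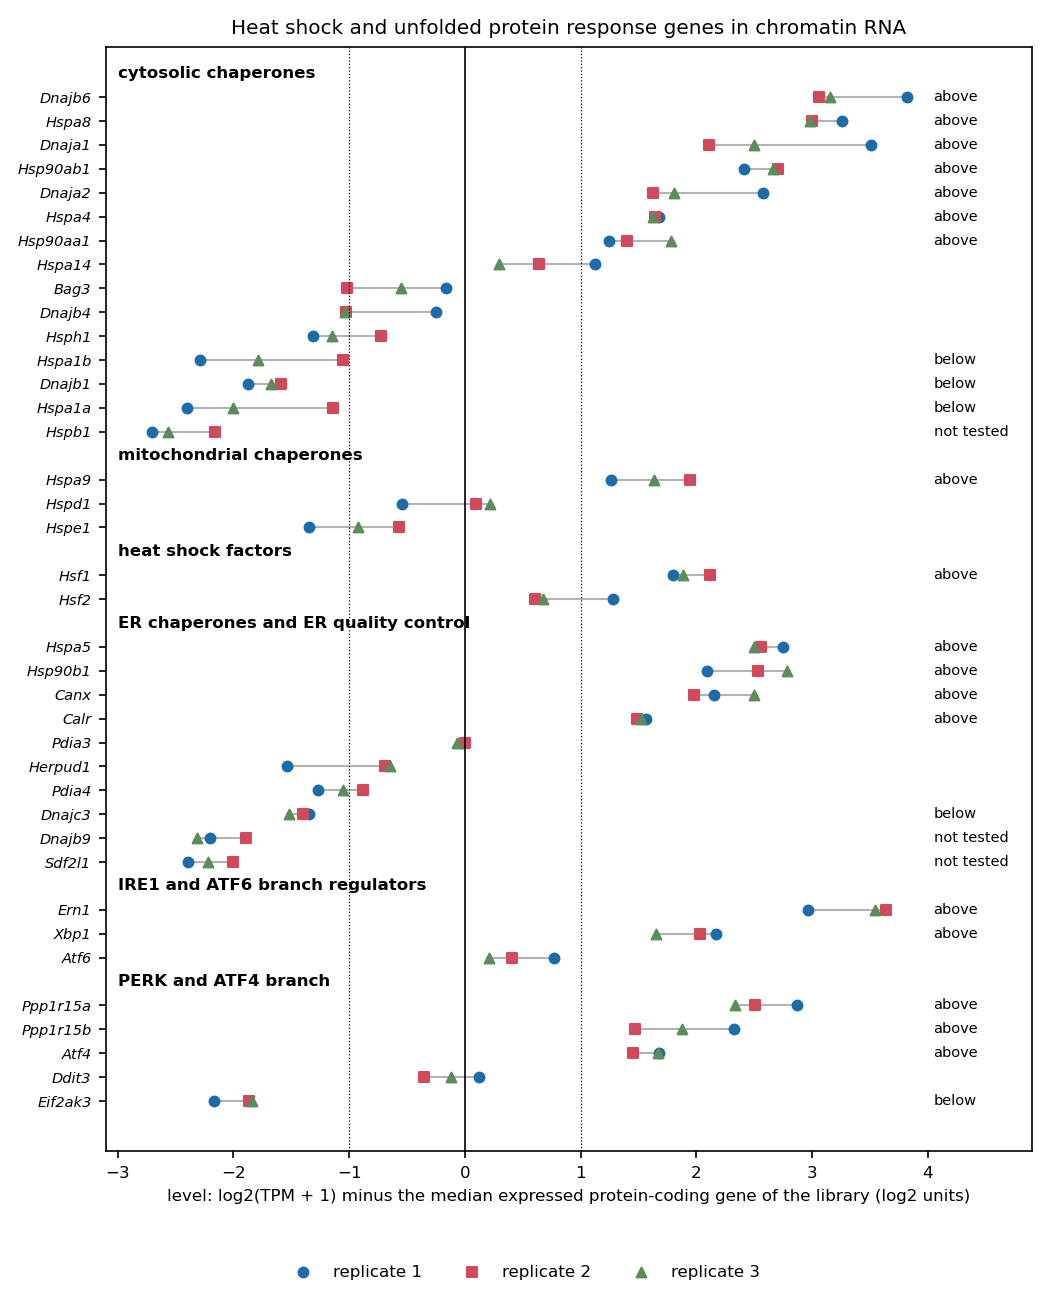
Level of each of the 38 genes in each library, as log2(TPM + 1) relative to the median expressed protein-coding gene (solid line), by role; dotted lines mark 1 log2 unit on each side, grey bars join the 3 replicates, and the right margin gives the call. In the cytosolic group 7 genes lie above the reference and 3 below, and among the 3 sensor genes Ern1 is highest and Eif2ak3 lowest.

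Among the 15 cytosolic chaperones, 14 were tested, with 7 above the reference (Hspa4, Hspa8, Hsp90aa1, Hsp90ab1, Dnaja1, Dnaja2 and Dnajb6) and 3 below (Hspa1a, Hspa1b and Dnajb1). Hspa8, which encodes the constitutive HSP70 protein HSC70, stood at 61.02, 36.69 and 45.74 TPM (level 3.08 ± 0.15, SD, n = 3, adjusted p = 8.16e-05). Hspa1a, its heat-inducible relative, stood at 0.23, 1.13 and 0.48 TPM (level -1.85 ± 0.64, adjusted p = 0.021). Hspa1b stood at 0.33, 1.27 and 0.72 TPM (level -1.71 ± 0.62, adjusted p = 0.0367). Hspa8 was thus 109, 15.3 and 38.1 times the sum of the inducible pair in TPM, and every library had the same order. The calls of Hspa1a and Hspa1b were lost without replicate 3 and with the median of all genes as reference.

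The HSP40 co-chaperones, which deliver clients to HSP70, ranged from above to below the reference. Dnajb6, which holds back aggregation, was the highest of all 38 genes by mean TPM, at 90.71, 38.09 and 51.65 TPM (level 3.34 ± 0.42, adjusted p = 0.000137). That rank rested on replicate 1, and Ern1 was higher in replicates 2 and 3 (57.40 and 67.99 TPM) and in mean level (3.38). Dnaja1 was next among the HSP40 genes at 73.18, 19.22 and 32.41 TPM, and Dnaja2 at 37.69, 13.52 and 19.72 TPM, with levels of 2.70 ± 0.73 and 2.00 ± 0.50 (adjusted p = 0.00182 and 0.0062). In these 3 HSP40 genes replicate 1 was highest and replicate 2 lowest. Dnaja1 overlaps Smu1 on the opposite strand by 608 bases, and Smu1 stood at 18.83, 14.66 and 18.29 TPM. Dnajb1, the HSP40 gene most strongly tied to heat shock, stood at 0.77, 0.56 and 0.85 TPM (level -1.72 ± 0.15, adjusted p = 0.00642, a call lost without replicate 3). Dnajb4 was not called, at 4.47, 1.30 and 1.89 TPM.

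The HSP90 genes were both above the reference. Hsp90ab1, the constitutive form, stood at 33.61, 29.61 and 36.46 TPM (level 2.59 ± 0.16, adjusted p = 0.000271). Hsp90aa1, the more inducible form, stood at 14.42, 11.40 and 19.30 TPM (level 1.47 ± 0.27, adjusted p = 0.0421). Hsp90ab1 exceeded Hsp90aa1 by 2.33, 2.6 and 1.89 times in TPM in replicates 1, 2 and 3. The Hsp90aa1 call was lost without replicate 2 and without replicate 3. Hspa4, a nucleotide exchange factor for HSP70, was the steadiest called gene on the level scale, at 19.75, 13.67 and 17.31 TPM (level 1.65 ± 0.02, adjusted p = 0.0079, lost without replicate 3).

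The rest of the cytosolic group was near or under the reference. Hspa14, a ribosome-associated HSP70 relative, stood at 13.16, 6.32 and 6.25 TPM and was not called; it overlaps the annotated gene Gm45902 on the same strand, so reads may be divided between them. Hsph1, the HSP110 nucleotide exchange factor, stood at 1.62, 1.85 and 1.67 TPM, with a level of -1.06 ± 0.30 and no call. These values lay under the bounds deposited with them, 1.80 to 6.26, 1.89 to 5.29 and 1.87 to 5.69 TPM, so the level may be too low. Bag3, a heat-inducible co-chaperone of selective autophagy, stood at 4.79, 1.32 and 3.03 TPM and was not called. It overlaps 2610306O10Rik on the same strand, which stood at 15.27, 8.08 and 9.57 TPM. Hspb1, which encodes the small heat shock protein HSP27, had 0, 1 and 0 counts and was not tested; a count of 0 allows up to 3 counts.

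Of the heat shock factors, Hsf1, the main activator of inducible chaperone genes, was above the reference at 21.62, 19.37 and 20.91 TPM (level 1.93 ± 0.16, adjusted p = 0.00226). Hsf2, its paralogue, was not called at 14.80, 6.14 and 8.46 TPM (level 0.85 ± 0.37).

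Of the mitochondrial chaperones, only Hspa9, the HSP70 protein of the mitochondrial matrix, was called above, at 14.57, 17.06 and 17.39 TPM (level 1.61 ± 0.34, adjusted p = 0.022). Leaving out replicate 2 or replicate 3, or taking the deposited posterior mean TPM, ended that call. Hspd1 and Hspe1 encode the HSP60 and HSP10 components of the mitochondrial folding chamber and are transcribed in opposite directions from overlapping starts on chromosome 1. Hspd1 stood at 3.46, 4.01 and 5.88 TPM and Hspe1 at 1.55, 2.16 and 2.13 TPM, and neither was called.

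Of the 10 ER genes, 8 were tested, with 4 chaperones above the reference and 1 gene below. Hspa5, which encodes the HSP70 protein BiP, stood at 42.60, 26.71 and 32.48 TPM (level 2.60 ± 0.13, adjusted p = 0.000248). Hsp90b1, the ER form of HSP90, stood at 26.71, 26.23 and 39.70 TPM (level 2.47 ± 0.35, adjusted p = 0.000811). The lectin chaperones calnexin and calreticulin hold glycoproteins while they fold. Canx stood at 27.85, 17.56 and 32.40 TPM (level 2.21 ± 0.26, adjusted p = 0.00117), and Calr at 18.23, 12.17 and 15.96 TPM (level 1.52 ± 0.04, adjusted p = 0.0184). The Calr call did not survive the loss of replicate 2 or of replicate 3, or the use of the posterior mean TPM. These 4 genes all carry an ERSE, but so does Dnajc3, an inhibitor of PERK and BiP co-chaperone, which was below the reference at 1.56, 0.78 and 1.06 TPM (level -1.42 ± 0.09, adjusted p = 0.0409). The Dnajc3 call ended when replicate 2 or replicate 3 was left out and when the median of all genes was the reference.

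The remaining ER genes were not called or not tested. Pdia3, a disulfide isomerase that works with the lectin chaperones, lay at the reference, at 5.38, 3.70 and 4.65 TPM (level -0.03 ± 0.03). Pdia4, another isomerase, stood at 1.69, 1.55 and 1.85 TPM, and Herpud1, which takes part in ER-associated degradation, at 1.24, 1.92 and 2.79 TPM. Dnajb9 and Sdf2l1, BiP co-chaperones that are sensitive reporters of ER stress in many cells, did not reach the count minimum. Dnajb9 had 13, 5 and 9 counts (0.41, 0.27 and 0.19 TPM) and Sdf2l1 had 3, 4 and 5 counts (0.24, 0.17 and 0.27 TPM).

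The 3 sensors of ER stress differed widely. Ern1, the IRE1 gene, was the second highest of the 38 by mean TPM, after Dnajb6, at 49.73, 57.40 and 67.99 TPM (level 3.38 ± 0.36, adjusted p = 0.000101). It was the highest by mean level and, in replicates 2 and 3, by TPM. Atf6 stood near the reference at 10.08, 5.24 and 5.84 TPM (level 0.46 ± 0.28, not called). Eif2ak3, the PERK gene, was lowest of all genes tested in these groups, at 0.45, 0.29 and 0.65 TPM (level -1.96 ± 0.18, adjusted p = 0.00214). Ern1 exceeded Atf6 by 4.93, 10.9 and 11.6 times and Eif2ak3 by 110, 198 and 105 times in TPM (66.5, 71.8 and 115 times for Eif2ak3 in TPM from the quantification without alignment, an alternative chosen after seeing the data), and the order Ern1, Atf6, Eif2ak3 held in every library without overlap. The deposited bounds on Eif2ak3 TPM were 0.371 to 2.09, 0.288 to 1.52 and 0.531 to 2.02 in replicates 1, 2 and 3. Its TPM lay near the lower bound in each, so the size of the ratios to Eif2ak3 is uncertain. Eif2ak3 counts were low, at 15, 28 and 32.6. A small nucleolar RNA gene on the same strand within it, Gm23346, stood at 0, 39.92 and 22.99 TPM.

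Xbp1, the target of IRE1, was above the reference at 28.25, 18.22 and 17.57 TPM (level 1.95 ± 0.27, adjusted p = 0.00295). The shortest intron of any of its 4 annotated isoforms is 300 bases, so the form spliced by IRE1, which lacks a much shorter stretch, has no isoform of its own in these tables and its share was not measured. IRE1 activity was not measured here.

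In the PERK and ATF4 branch, the upstream kinase was low and the phosphatase subunits that oppose it were high. Ppp1r15a, the stress-inducible subunit GADD34, stood at 46.40, 25.74 and 28.82 TPM (level 2.57 ± 0.27, adjusted p = 0.000444). Ppp1r15b, the constitutive subunit CReP, stood at 31.56, 11.99 and 20.73 TPM (level 1.89 ± 0.43, adjusted p = 0.00734). Atf4 stood at 19.84, 11.90 and 17.79 TPM (level 1.60 ± 0.13, adjusted p = 0.0121, lost without replicate 3). Ddit3, the proapoptotic target of ATF4, lay at the reference, at 6.07, 2.68 and 4.44 TPM (level -0.12 ± 0.24). Ppp1r15a exceeded Ddit3 by 7.64, 9.6 and 6.49 times, and Atf4 exceeded it by 3.27, 4.44 and 4.01 times, in TPM. By the quantification without alignment, also added after seeing the data, the ratios were lower, at 4.31, 4.43 and 3.6 for Ppp1r15a and 1.78, 2.36 and 2.17 for Atf4. Ddit3 also has a second annotated entry that spans the same locus, which was listed at 0 in the alignment-based tables and at 4.28, 1.5 and 4.12 TPM, from fewer than 3 counts each, in the alignment-free ones. The gene overlaps Mars on the opposite strand by 68 bases. The overlap of Ppp1r15a with Tulp2 on the opposite strand covers 717 bases, where Tulp2 stood at 2.37, 0.93 and 0.93 TPM.

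Contrasting the compartments, the median level over all members was higher for the cytosolic than for the ER group, by 1.77, 0.98 and 0.65 log2 units in replicates 1, 2 and 3 (1.13 ± 0.58, SD, n = 3). It was lower for the cytosolic group than for the PERK and ATF4 branch, by -0.56, -0.82 and -1.37 (-0.92 ± 0.42). The ER group lay under the PERK and ATF4 branch by -2.33, -1.80 and -2.02 (-2.05 ± 0.27). The direction was the same in all 3 libraries, but the sizes depended on the summary and on which members were included. With the mean in place of the median, the differences were 0.39, -0.31 and -0.70, and over the genes that passed the count minimum the cytosolic and ER groups differed by 0.31. With alignment-free TPM the cytosolic group no longer lay under the PERK and ATF4 branch (0.047 ± 0.25). Of the tested genes, 7 of 14 cytosolic, 4 of 8 ER and 3 of 5 PERK and ATF4 genes were above, against 21.3% of all genes tested. No test of a difference was made.

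Further genes of the same pathways were taken from 3 lists. Of 50 other cytosolic and mitochondrial folding genes, 38 passed the count minimum. A total of 11 were above (28.95%, against 21.3% of all genes tested) and 4 below (10.5%, against 21.3%). The median level was 0.77, or 0.08 over all 50. The highest were Dnajc7, an HSP70 and HSP90 co-chaperone (69.2, 42.37 and 56.36 TPM), Bag6, which guards exposed membrane proteins (34.54, 27.91 and 38.97 TPM), and Cct8, a subunit of the cytosolic chaperonin (41.59, 24.15 and 33.15 TPM). The lowest were Hspa2, the HSP70 protein of the testis (0.25, 0.31 and 0.14 TPM), Hsf4 (0.28, 1.13 and 1.04 TPM) and Clpb (0.84, 0.99 and 0.92 TPM), all called below.

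Of 38 other ER folding and degradation genes, 35 passed, with 6 above (17.1%, against 21.3% of all genes tested) and 2 below (5.71%, against 21.3%). The share above was thus no higher than that of all genes. The median level was 0.29, or 0.21 over all 38. Sel1l, the scaffold of the main ER degradation ligase, was highest at 109.7, 72.95 and 78.11 TPM (level 3.94 ± 0.18, adjusted p = 2.33e-05). Edem1, a lectin that passes glycoproteins to degradation, stood at 47.33, 26.50 and 35.28 TPM, and Pdia6 at 27.09, 16.94 and 17.44 TPM, both above. Creb3l2 (0.32, 0.31 and 0.31 TPM) and Wfs1 (0.55, 0.50 and 0.59 TPM) were below, and Creld2, at 1.23, 1.19 and 1.55 TPM, was not called.

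Of 31 other genes of the integrated stress response, 24 passed, with 7 above (29.2%, against 21.3% of all genes tested) and 3 below (12.5%, against 21.3%). The median level was 0.27, or -0.28 over all 31. Eif2ak2 encodes PKR, the eIF2 alpha kinase for double-stranded RNA and an interferon-induced gene. It stood at 178, 35.2 and 55.1 TPM (level 3.66 ± 0.99, adjusted p = 0.000905), high in replicate 1 above all, while the PERK gene was below the reference. Nupr1, a stress-induced cofactor, stood at 91.87, 33.19 and 62.00 TPM, and Slc3a2, the heavy chain of amino acid exchangers and itself an ATF4 target, at 53.77, 49.18 and 61.75 TPM, both above. The ATF4 targets Asns (1.00, 0.51 and 1.13 TPM) and Sesn2 (0.15, 0.39 and 0.35 TPM) were below, as was the initiation factor gene Eif2b1 (1.00, 0.63 and 0.87 TPM). Among the genes named here, ATF4 targets lay on both sides of the reference. These genes were picked as the 3 highest and 3 lowest of the list, so this does not describe ATF4 targets as a class.

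Differences between libraries were measured as the SD of log2 TMM-normalised CPM, which are counts scaled to library size and not divided by gene length. The median SD of the 35 genes was 0.274, against 0.399 over all genes tested, and 15 of 35 exceeded the latter. This comparison was not matched for counts, and the median level of the 35 genes was higher (1.47 against -0.21). Hspa1a and Hspa1b stood apart, with SDs of 1.41 and 1.26, at percentiles 98.6 and 97.8 of all genes tested. Hspa1a had 0.676, 4.76 and 1.6 CPM in replicates 1, 2 and 3, a 7.03-fold range, and Hspa1b 0.864, 4.98 and 2.18 CPM, a 5.76-fold range. The expected counts were low, at 9.04, 83.78 and 27.99 for Hspa1a and 11.96, 88.12 and 39.01 for Hspa1b, so the lower end rests on few reads. The deposited bounds on Hspa1a TPM, which cover error within a library only, were 0.0959 to 0.401 in replicate 1, 0.826 to 1.37 in replicate 2 and 0.281 to 0.677 in replicate 3. Replicate 2, made from the least RNA, was highest in both, and whether RNA amount plays a part cannot be told apart from the replicate.

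The Hspa1a and Hspa1b values are not independent of each other. Each is a single exon, of 2967 and 2803 bases, and 2495 of 2729 aligned bases are identical (91.4%). A read of 31 bases would fit both genes over 63.8% of Hspa1a and 67.5% of Hspa1b, so their separate values depend on how shared reads were divided. The steadiest genes were Hspa5, Atf4 and Pdia4, with SDs of 0.084, 0.087 and 0.091. Hspa5 had 73.9, 67.1 and 66.7 CPM and Atf4 29.4, 29.4 and 32.6 CPM. Herpud1 was next after the Hspa1 pair, with 1.24, 3.15 and 2.55 CPM (SD 0.706).

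**Figure D2:**
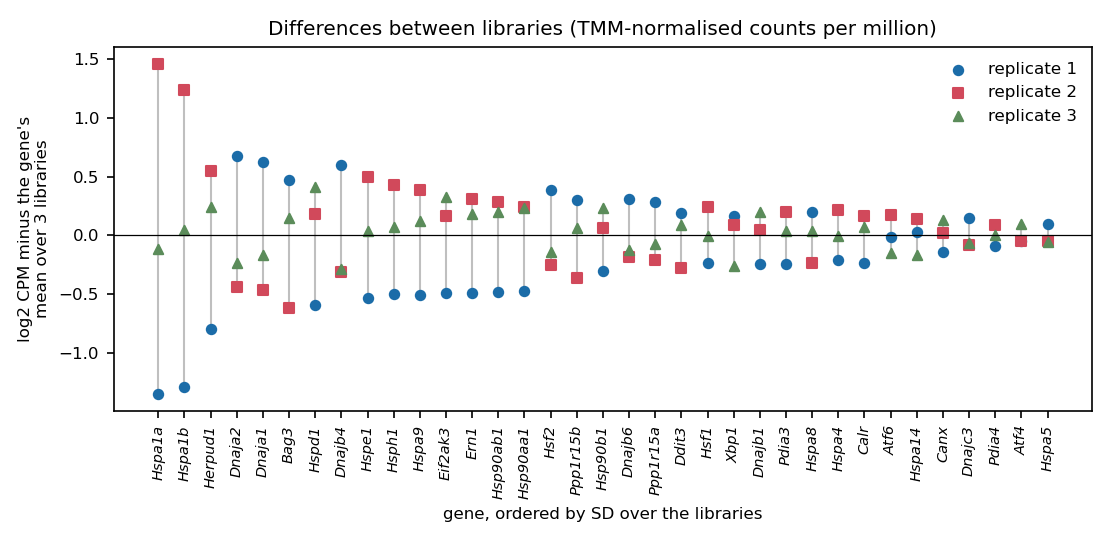
Each gene's log2 TMM-normalised CPM in replicates 1, 2 and 3 minus its own mean, for the 35 genes that passed the count minimum, ordered by SD; grey bars join the replicates. Hspa1a and Hspa1b have the widest range, with replicate 2 highest, and Hspa5 and Atf4 the narrowest.

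The highest library on this scale was replicate 1 for 13 genes, replicate 2 for 16 and replicate 3 for 6. Replicate 1 was highest for Dnaja1, Dnaja2, Dnajb4, Dnajb6 and Bag3, and replicate 2 for Hspa1a, Hspa1b, Hspa9, Hspe1, Hsp90aa1, Hsp90ab1 and Ern1. On the level scale, by contrast, replicate 1 was highest for 18, replicate 2 for 11 and replicate 3 for 6. The highest library was not counted over all genes tested, so these counts do not set the members apart from other genes. Without replicate 1 the median SD fell to 0.149, and that of all genes to 0.174.

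Each library was also quantified from the reads without an alignment file. The difference, alignment-free minus alignment-based log2(TPM + 1) centred on protein-coding genes, passed the same bound in 0 of 35 genes in either direction, by limma's treat, and in 1 gene (Hspe1) at an unadjusted p under 0.05. Of all 13427 genes, 2.52% were called higher and 0.559% lower in the alignment-free values. The share of all genes at that unadjusted p was not counted. Hspe1 differed most, at 25.2, 6.04 and 9.43 TPM without alignment against 1.55, 2.16 and 2.13 TPM with it (1.73 ± 0.78 log2, adjusted p = 0.43). Dnajb6 stood at 388, 83.6 and 140 TPM by the alignment-free method (1.18 ± 0.14, adjusted p = 0.9). Sdf2l1, not tested, stood at 4.2, 1.28 and 2.14 TPM. The median difference was -0.20 over the 35 genes and -0.03 over all genes tested, and in the PERK and ATF4 branch it was -0.74; Ppp1r15a stood at 45.2, 12.8 and 22.6 TPM and Atf4 at 18.7, 6.86 and 13.6 TPM. In the alignment-free values 13 of the 18 calls above remained, the 5 lost being Atf4, Calr, Hsf1, Hspa9 and Ppp1r15b, and all 5 calls below remained. Of all genes tested, 21% were above and 22.6% below in these values.

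**Figure D3:**
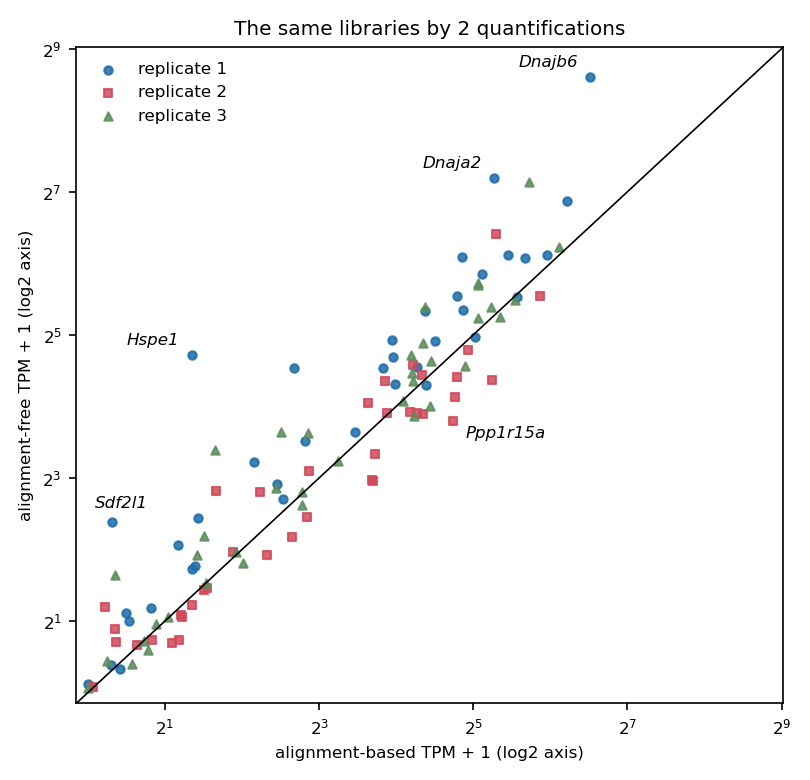
Alignment-free against alignment-based TPM + 1 (log2 axes) for the 38 genes in each of the 3 libraries, with the line of equality. Hspe1 and Dnajb6 lie farthest above the line in replicate 1, at 25.2 and 388 TPM without alignment, and Ppp1r15a lies under it in replicate 2.

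The annotation types some isoforms as retained intron, and 22 of the genes with such an isoform passed the count minimum and averaged 1 TPM or more. Those isoforms held a median of 51.8% of the gene's TPM over these 22 genes, against 45.7% over 5737 protein-coding genes chosen in the same way. The share exceeded 50% in 12 of the 22 and in 2440 of the 5737 (42.5%). TPM is divided by isoform length and expected counts are not. By expected counts the medians were 28.7% and 29.8%, with 8 of the 22 and 28.3% of all over 50%. Why the 2 measures differ was not tested. The genes ranged from 6.84% in Dnajb4 to 76.4% in Hspa14. In Atf4 the retained intron isoform Atf4-203 held 53.5% ± 3.98 (SD, n = 3) and the coding Atf4-201 46.5% ± 3.98. In Calr the isoform Calr-204 alone held 45.8% ± 2.09, and the coding Calr-201 26.9% ± 7.54. In Xbp1 the retained intron isoform Xbp1-202 held 43% ± 6.59, and in Ddit3 the isoform Ddit3-202 held 55.2% ± 12.5.

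**Figure D4:**
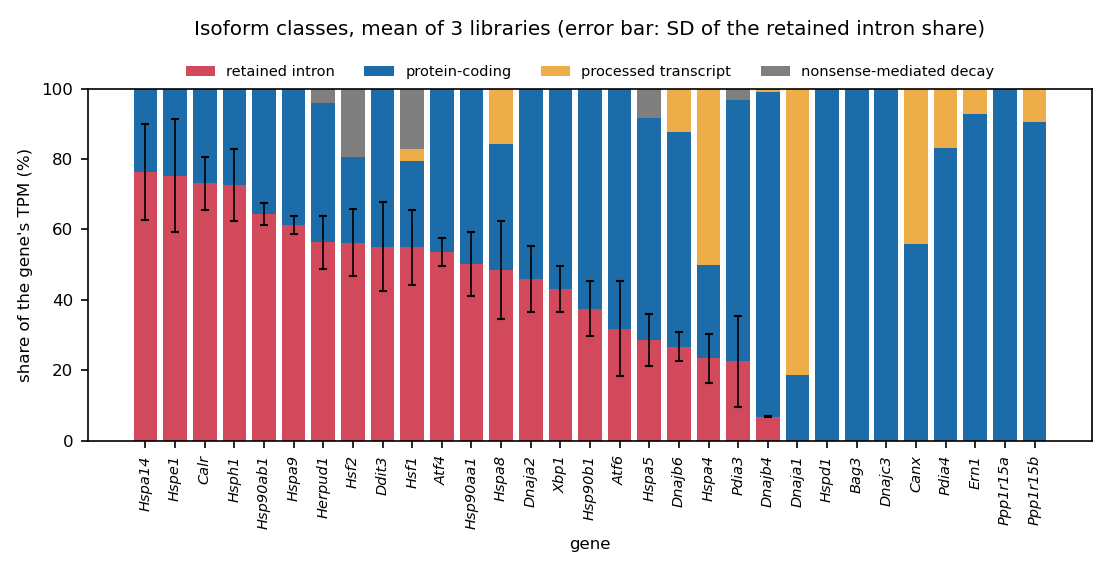
Share of each gene's TPM held by retained intron, protein-coding, processed transcript and nonsense-mediated decay isoforms, mean of 3 libraries, for genes that averaged 1 TPM or more; error bars are the SD of the retained intron share. Hspa14 is highest at 76.4% and Dnajb4 lowest among genes with such an isoform at 6.84%; in Dnaja1 and Hspa4 processed transcripts hold the largest share.

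Hspa1a and Hspa1b have 1 single-exon isoform each. Of the 5 annotated Ern1 isoforms, 0 are typed as retained intron, so no such share could be found for this gene. The coding isoforms Ern1-201 and Ern1-204 held 53.1% ± 7.08 and 24.3% ± 2.98 of its TPM with alignment. Without alignment they held 33.2% ± 10.1 and 34.1% ± 5.54. Hspa4 was held to 50.2% ± 8.08 by Hspa4-203, a processed transcript with 16 exons, against 26.5% ± 4.95 for the coding Hspa4-201. In Hspe1 the quantifications parted by isoform. The coding Hspe1-201 held 24.7% ± 16 of the gene's TPM with alignment and 86.5% ± 4.71 without it. Its own TPM was 0.14, 0.52 and 0.87 with alignment and 23, 4.95 and 8.11 without.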

How the data were processed

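Chromatin-fraction total RNA-seq was used from 3 libraries of 1 group, numbered by the labels. Per the file headers, the authors deposited expected counts and TPM per gene and transcript from an alignment (RSEM column names; mm10 and GENCODE M21), and estimated counts and TPM per transcript without one (kallisto column names). The deposited score columns, posterior SDs of counts per the file headers, entered no test. Aligner, versions and strand setting, not given in the sources used here, could change these values. Levels were tested with limma's treat (3.58.1, R 4.3.3; pseudocount 1, bound 1 log2 unit, Benjamini-Hochberg at 0.05) over 13434 genes whose expected counts averaged 10 or more. Counts were rounded for edgeR 4.0.16 (TMM factors 1.439, 0.726 and 0.956; prior count 2) and DESeq2 1.42.0. The fits were tested on simulated data. A count of 0 allows 3 counts (0.266, 0.12 and 0.152 CPM), counting error only. All 38 genes are named, with the 3 highest and 3 lowest of each list of other genes by mean level. Upstream sequence is shown for the Hspa1 pair, Hspa5 and Ppp1r15a, in 30 bases where the window reaches an annotated exon; 4 further genes' ERSE sites were added after the matches were seen. Genes and lists were chosen with earlier results of these data known. Alternatives covered quantification, TPM estimate, pseudocount, count minimum, reference, scale, group summary and each left-out replicate.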

Additional observations from a re-analysis of the deposited data

How the results depend on the processing

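Over 341 combinations of gene and alternative, 295 levels kept their call status, 41 lost a call, 5 gained one and 0 called levels changed sign; 16 levels that were called in neither fit changed sign. The reference decides many calls: without a minimum count all levels rose by 0.95 log2, with a minimum of 100 they fell by 1.07, and with the median of all genes they rose by 0.20. With a minimum of 100, 5 of 26 tested genes were above (17.8% of all genes) and 3 below, and 4 of the 5 genes called below were no longer tested; without a minimum 1 was below, and with the median of all genes 2. Leaving out a replicate gave 13 to 18 above and 1 to 5 below. The share of all genes called below was 10.6% at the minimum of 100 and 11.7 to 24.8% with a replicate left out.

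For other cytosolic and mitochondrial folding genes, calls above were 22 of 45 tested without a minimum and 3 of 26 at 100. Calls below were 8 of 38 with a pseudocount of 0.1 and 8 of 38 on TMM-scaled counts per length. They were 0 of 26 at 100, 1 of 38 with the median of all genes and 1 to 4 of 38 with a replicate left out. For other ER genes, calls above were 15 of 37 without a minimum, 2 of 26 at 100 and 3 to 7 of 35 with a replicate left out. Calls below were 0 of 37 without a minimum and 4 of 35 on TMM-scaled counts. For other integrated stress response genes, calls above were 11 of 29 without a minimum and 3 of 16 at 100. Calls below were 0 of 16 at 100. Out of 24 they were 1 with the posterior mean TPM, 1 with the median of all genes and 1 to 3 with a replicate left out. Of all genes, 21.9% were above without a minimum, 17.8% at 100 and 18.2 to 22.7% with a replicate left out. The shares below were 24.5% without a minimum, 10.6% at 100 and 27.1% with a pseudocount of 0.1. They were 26.9% on TMM-scaled counts, 20.5% with the posterior mean TPM and 15.5% with the median of all genes.

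The difference between the cytosolic and ER group medians was 0.39 with means and 0.31 over genes that passed the count minimum. That between the cytosolic group and the PERK and ATF4 branch was -0.31 with means and reversed to 0.047 with alignment-free TPM. That between the ER group and the PERK and ATF4 branch was -0.86 with alignment-free TPM, -2.35 with a pseudocount of 0.1, -2.36 on TMM-scaled counts, -0.70 with means and -0.86 over genes that passed. The median SD over libraries was 0.149 to 0.353 with a replicate left out. Without centring, 1 gene (Hspe1) was called higher in the alignment-free values. In that setting the median difference of protein-coding genes was 0.74, -0.02 and 0.34 log2 in replicates 1, 2 and 3. The share of all genes called without centring is not given here, so this call is not read as particular to Hspe1. The median retained intron share was 28.7% by expected counts. The causes were not tested. No paired analysis was possible because there is 1 group. Alignment-based counts were low for the genes under the count minimum (Hspb1, Dnajb9 and Sdf2l1) and for Eif2ak3. They were also low in replicate 1 for Hspa1a (9.04) and Hspa1b (11.96). Without alignment, Sdf2l1 had 63, 64.8 and 62.3 counts against 3, 4 and 5 with it. Dnajb9 had 20, 17 and 14 against 13, 5 and 9. Whether depth or the assignment of reads kept these 2 genes under the minimum was not tested.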
